A study of Mus musculus with 16 samples.

Results

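The genes of the unfolded protein response (UPR) described here are 10 genes taken by symbol, Hspa5, Hsp90b1, Pdia4, Dnajb9, Sdf2l1, Herpud1, Xbp1, Atf4, Ddit3 and Trib3, out of 54532 genes listed for each library of pulmonary ECs. All 10 were found with reads in every library. A second identifier also carried the symbol Ddit3, spans 105 exon bases inside the Ddit3 gene on the same strand, had 0 reads in every library and was not used.

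Bulk RNA-seq was performed in 2 separate experiments on mouse lung cells after magnetic beads against CD45 had been used to deplete leukocytes and beads against CD31 to capture ECs. Leukocyte transcripts were present in this fraction all the same, and their levels are given with the cell type markers. In the first, male WT C57/BL6J mice, 8 weeks old, received saline (n = 4) or 10 mg/kg LPS (n = 6) by the intratracheal route. In the second, Fgfr1 loxP/loxP mice (n = 3) and VE-cadherin-CreERT2 Fgfr1 loxP/loxP littermates, called Fgfr1 iΔEC/iΔEC (n = 3), all received 2 mg/kg LPS, so this experiment holds no saline group. The Cre is driven by the promoter of VE-cadherin, an adhesion protein of endothelial cells, and is switched on by tamoxifen, which both genotypes received by intraperitoneal injection and the mice of the first experiment are not said to have received. The Fgfr1 mice were adult, and their age in weeks and strain background are not given in the sources used here. RNA was taken 24 h after instillation in all 4 groups. LPS, shed from the outer membrane of Gram-negative bacteria, serves here to model acute lung injury. Nothing in the labels says that a library held more than 1 mouse, and p-values measure the spread between these libraries.

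Reads on genes ranged from 13478726 to 18807007 in the saline libraries, from 17840221 to 19043015 in LPS, from 15969575 to 17002788 in loxP/loxP and from 16642177 to 16943522 in iΔEC/iΔEC. Levels are given in FPKM, fragments per gene after scaling for gene length and library size, so that genes can be set against each other. Reads are not independent molecules, as no molecular identifiers were used. Fold changes are on the scale of log2(FPKM + 1) and understate the change of genes with low FPKM. A gene passed when its limma p, adjusted over all genes tested, was at or under 0.05. All 10 genes had a mean of at least 0.5 FPKM in both experiments and were tested. In the second experiment Ddit3 reached this mean only through the iΔEC/iΔEC libraries.

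The UPR is the reaction of a cell to unfolded proteins in the endoplasmic reticulum (ER), the compartment in which secreted and membrane proteins are folded. It is relayed by 3 sensors in the ER membrane. IRE1 splices the mRNA of Xbp1, ATF6 is released by proteolysis, and PERK phosphorylates the initiation factor eIF2, which favours translation of Atf4. XBP1 and ATF6 act on genes of chaperones and of ER-associated degradation, and ATF4 acts on genes of amino acid metabolism and on Ddit3 and Trib3. Endothelial cells secrete and display many such proteins, among them von Willebrand factor and adhesion receptors. Counts per gene do not show the splicing of Xbp1, the cleavage of ATF6 or the translation of Atf4.

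The promoters of these genes are shown where they hold a known letter pattern of the response. Windows of 250 bases before to 50 bases after the start of each gene, from RefSeq on GRCm38.p6, were found for all 10. They were searched on both strands for the ER stress response element ERSE (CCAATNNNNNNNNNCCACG), the element ERSE-II (ATTGG and CCACG parted by 1 base), the core of the UPR element (TGACGTG) and the C/EBP-ATF response element (TGATGNAA), where N is any base. The windows with a match before the start follow, written 5′ to 3′ on the strand of the gene with the matches in capitals.
Hspa5, UPR element core, chr2:34771923-34771949, plus strand: ggcgtagcaaTGACGTGagttgcggag
Hspa5, ERSE, chr2:34772020-34772048, plus strand: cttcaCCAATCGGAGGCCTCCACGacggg
Hsp90b1, a pair of ERSE, chr10:86705523-86705666, minus strand: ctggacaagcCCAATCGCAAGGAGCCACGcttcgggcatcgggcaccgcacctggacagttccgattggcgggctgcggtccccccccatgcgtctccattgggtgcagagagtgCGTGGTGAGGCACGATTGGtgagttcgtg
Herpud1, C/EBP-ATF response element and ERSE-II, chr8:94386307-94386397, plus strand: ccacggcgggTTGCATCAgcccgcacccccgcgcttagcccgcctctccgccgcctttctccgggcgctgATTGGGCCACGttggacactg

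In Hspa5 the ERSE lay 65 to 47 bases before the RefSeq start, inside an exon of GENCODE M21, and the UPR element core lay 157 to 151 bases before it. In Hsp90b1 the ERSE nearer to the start, 107 to 89 bases before it, read on the opposite strand, and the other lay 212 to 194 bases before it. Trib3 held a C/EBP-ATF response element in bases 15 to 22 after its start, on the opposite strand. No 2 of these matches overlapped. Of 32851 promoters, 0.119% held an ERSE, 0.0365% an ERSE-II, 2.01% the UPR element core and 3.97% a C/EBP-ATF response element. Dnajb9, Pdia4, Sdf2l1, Xbp1, Atf4 and Ddit3 held none of these exact letters in their windows. The matches describe these windows and are not measured binding sites.

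After LPS, 5 of the 10 genes rose and 0 fell. Sdf2l1 rose by 2.07 on the log2 scale, Atf4 by 1.29, Hspa5 by 1.15, Ddit3 by 1.12 and Xbp1 by 0.83. Over all 14893 genes tested, 29.5% rose and 23.7% fell, so that 53.2% passed in either direction. The median log2 fold change was 0.54 over the 10 genes and 0.01 over all genes tested. All 10 also passed a stricter filter, a mean of 2 FPKM, and 5 of them rose there too. Under that filter 3881 of 10849 genes rose and 2419 fell, and the median of all genes was 0.12. The counts and medians of the main fit also depended on the scaling. Under quantile normalization, which forces all libraries to the same distribution, 4 of the 10 rose and 3 fell, with medians of 0.02 and -0.08. With libraries scaled on endothelial markers 8 rose and 0 fell, with medians of 1.24 and 0.56. With a further limit of 1 on the size of the log2 fold change, which 11.9% of all genes passed upward and 6.79% downward, 4 of the 10 passed, all of the 5 but Xbp1. In 4 of the 10 genes every LPS library was above every saline library, and in 0 every one was below. Groups were apart in this way in 39.4% of all genes tested, upward in 22.7% and downward in 16.7%. In bulk samples, fewer cells of a type and less RNA per cell cannot be told apart.

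**Figure D1:**
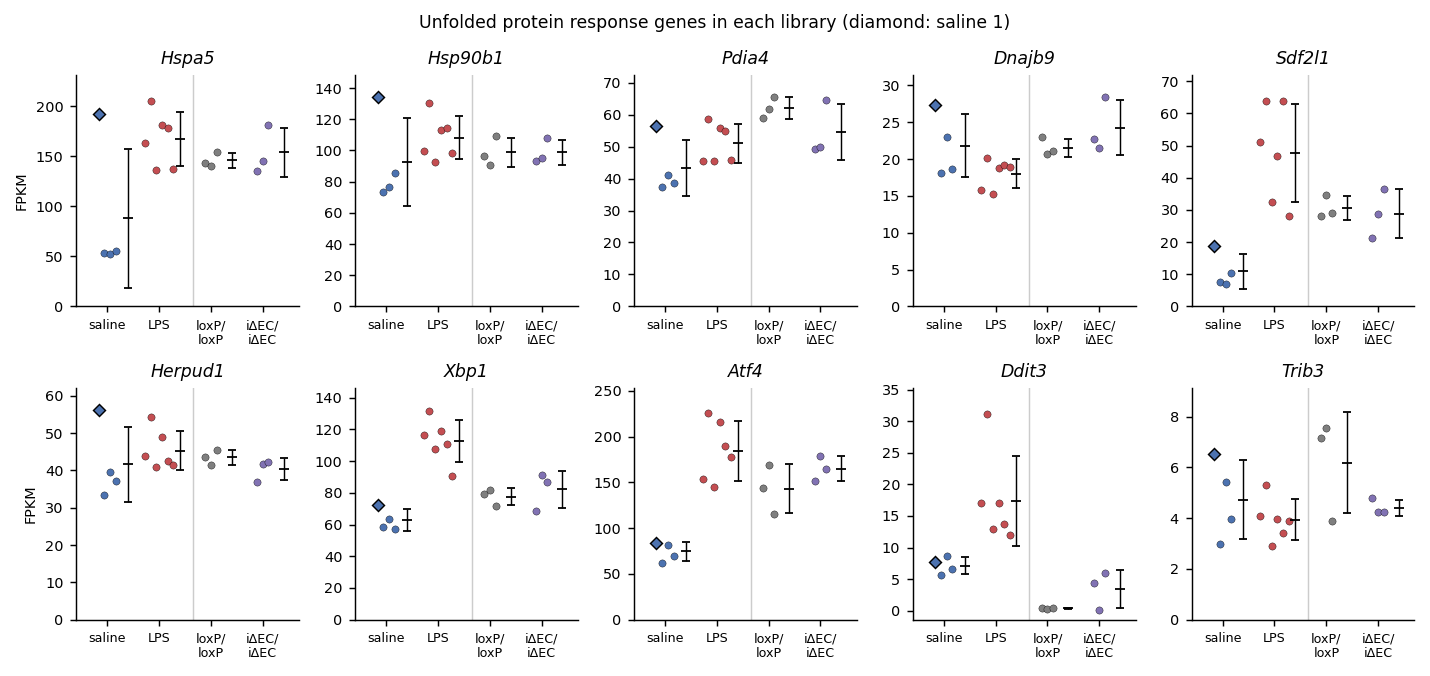
FPKM of the 10 UPR genes in each library, with 1 panel per gene and its own axis. Points are libraries, the diamond is the library saline 1, and bars are the mean ± SD of each group. The grey line parts the 2 experiments. For Sdf2l1, Xbp1, Atf4 and Ddit3 all LPS libraries lie above all saline libraries, while for Hspa5 saline 1 (192 FPKM) lies among the LPS libraries.

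The transcription factors of the response are Atf4, Xbp1 and Ddit3. Atf4 (chr15:80255184-80257541, plus strand) encodes the factor translated when eIF2 is phosphorylated. Its level was 83.9, 62.3, 81.9 and 69.7 FPKM in saline 1 to 4, and in LPS it ran from 145 to 226 FPKM with a median of 184. The lowest LPS library was thus above the highest saline library, with a log2 fold change of 1.29 (SE 0.16, limma, adjusted p = 9.25e-05). The exact permutation test gave p = 0.00952, the smallest that 4 against 6 libraries allow. Under quantile normalization the log2 fold change was 0.66 and on the endothelial markers 1.99, and both passed.

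Xbp1 (chr11:5520659-5525893, plus strand), the target of IRE1, stood at 72.6, 58.5, 63.4 and 57.3 FPKM in saline 1 to 4. In LPS it lay between 90.9 and 132 FPKM, with a median of 114. Its groups were also apart, with a log2 fold change of 0.83 (SE 0.13, limma, adjusted p = 0.000397). The size depended on the scaling, with 0.26 under quantile normalization (limma, adjusted p = 0.0233), and 1.53 on the endothelial markers. The saline libraries differed from their mean by at most 15.3%, which made Xbp1 the least variable of the 10 genes in this group by coefficient of variation (11.1%).

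Ddit3 (chr10:127290774-127296288, plus strand) encodes CHOP, a factor known for its part in cell death under lasting ER stress. It was low in saline, with 7.63, 5.62, 8.66 and 6.58 FPKM from 173 to 265 reads per library. In LPS its levels were 17.1, 31.2, 13.0, 17.1, 13.8 and 12.0 FPKM. LPS 2 stood above the other LPS libraries, but all of them exceeded saline. Its log2 fold change of 1.12 passed (SE 0.23, limma, adjusted p = 0.00214), and without LPS 2 it was 0.94, the lowest value when any 1 library was left out. The ratio of Ddit3 to Atf4 in FPKM overlapped between the groups, with 0.0902 to 0.106 in saline and 0.0675 to 0.138 in LPS. Ddit3 shares 68 exon bases with Mars, a tRNA synthetase gene on the opposite strand, and the strandedness of the libraries is not given in the sources used here.

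Trib3 (chr2:152337422-152344032, minus strand), a pseudokinase gene downstream of ATF4 and CHOP, did not pass. Its saline levels were 6.51, 3.00, 5.43 and 3.97 FPKM, and its LPS levels ran from 2.92 to 5.31 FPKM with a median of 3.94. The groups overlapped in part, with saline 1 and saline 3 above every LPS library, and the log2 fold change was -0.19 (95% confidence interval -0.60 to 0.22). It was -0.045 without saline 1 and -0.35 without saline 2, and neither passed. The values of Atf4 and Ddit3 were higher in LPS in all 6 libraries, and those of Trib3 were not.

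Among the chaperones, Hspa5 (chr2:34771970-34777547, plus strand) encodes BiP, the major HSP70 of the ER and the protein that holds the sensors inactive. Its level was 192, 53.5, 51.8 and 55.0 FPKM in saline 1 to 4 and 163, 205, 136, 181, 178 and 137 FPKM in LPS 1 to 6. Saline 1 thus lay above 5 of the 6 LPS libraries, whereas the other 3 saline libraries had a mean of 53.4 ± 1.61 FPKM (SD, n = 3). Hspa5 passed over all genes, with a log2 fold change of 1.15 (SE 0.34, limma, adjusted p = 0.0138), but its groups overlapped and the exact permutation test gave p = 0.0571. When saline 1 was left out this value was 1.61 (limma, adjusted p = 2.49e-05). Under quantile normalization it was 0.59 with an adjusted p of 0.0757 and no longer passed.

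Hsp90b1 (chr10:86690209-86705509, minus strand) encodes GRP94, the HSP90 of the ER. It stood at 134, 73.4, 76.8 and 85.8 FPKM in saline and between 92.8 and 131 FPKM in LPS, with a median of 106. Saline 1 was the highest of all 10 libraries, and the log2 fold change of 0.26 did not pass (95% confidence interval -0.14 to 0.65, limma, adjusted p = 0.249). Without saline 1 it was 0.45, under the limit (limma, adjusted p = 0.0176), which is a description for the reason given for Hspa5. Quantile normalization gave -0.33 (limma, adjusted p = 0.0216), the opposite direction. Hsp90b1 shares 415 exon bases (10.3%) with 1810014B01Rik, a pseudogene on the opposite strand, so that some of its reads are uncertain.

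Pdia4 (chr6:47796141-47813430, minus strand), a protein disulfide isomerase, showed 56.3, 37.4, 41.1 and 38.6 FPKM in saline and 45.6 to 58.5 FPKM in LPS. Its log2 fold change of 0.24 did not pass (95% confidence interval -0.07 to 0.55). As a description, it was 0.37 without saline 1 (limma, adjusted p = 0.0242). Under quantile normalization it was -0.22. Pdia4, Hsp90b1 and Hspa5, and Herpud1 described below, were in the same position. In each of them saline 1 was above at least 5 of the 6 LPS libraries, and the other saline libraries were below every LPS library.

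Sdf2l1 (chr16:17130138-17132383, minus strand) encodes a small ER protein that works with the BiP cycle. It had the largest change of the 10 genes in this comparison. Its levels were 18.8, 7.51, 6.97 and 10.3 FPKM in saline, from 138 to 275 reads, and 51.0, 63.8, 32.3, 46.8, 63.8 and 28.2 FPKM in LPS. All LPS libraries exceeded all saline libraries, saline 1 included, with a log2 fold change of 2.07 (SE 0.30, limma, adjusted p = 0.000222). The group means differed 4.38-fold. The ratio of Sdf2l1 to Hspa5 in FPKM was 0.0977 to 0.187 in saline and 0.205 to 0.359 in LPS, again with no overlap. Scaling by a single factor per library leaves this ratio as it is, but quantile normalization can change it.

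Dnajb9 (chr12:44205559-44210326, minus strand) encodes ERdj4, a J-domain cochaperone of BiP and a known target of XBP1. Unlike Xbp1 itself it was not higher in LPS, with 27.3, 18.2, 23.0 and 18.7 FPKM in saline and 15.2 to 20.1 FPKM in LPS. Its log2 fold change of -0.25 did not pass (95% confidence interval -0.55 to 0.05, limma, adjusted p = 0.139). Without saline 1 it was -0.14 and did not pass either (limma, adjusted p = 0.348). On total reads it was -0.44 and under quantile normalization -0.57, and both passed (limma, adjusted p = 0.00501 and 0.00121). Scaling on the endothelial markers gave 0.42, which did not pass and was below the median of all genes under that scaling (0.56).

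Herpud1 (chr8:94386438-94395377, plus strand) encodes an ER membrane protein of the degradation machinery. It stood at 56.3, 33.6, 39.5 and 37.1 FPKM in saline and between 40.8 and 54.4 FPKM in LPS. Its log2 fold change of 0.14 did not pass (95% confidence interval -0.19 to 0.47, limma, adjusted p = 0.45), with 0.29 and an adjusted p of 0.0612 when saline 1 was left out. Scaling on total reads gave -0.057 and quantile normalization -0.30, and the latter passed (limma, adjusted p = 0.0233). Of the 4 genes with a match in the promoter windows shown or named above, Hspa5 rose, and Hsp90b1, Herpud1 and Trib3 did not pass.

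**Figure D2:**
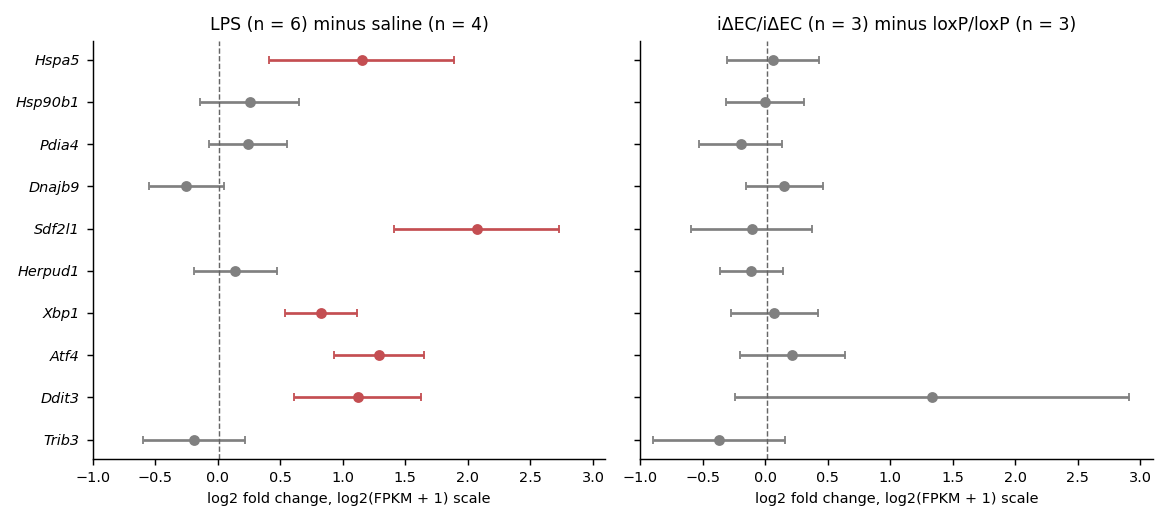
Log2 fold change of the 10 UPR genes with 95% confidence intervals from limma, for LPS against saline and for iΔEC/iΔEC against loxP/loxP. Red marks genes that passed, grey those that did not, and the dashed line is the median of all genes tested. Sdf2l1 stands highest in the first comparison (2.07), and no gene passed in the second.

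Saline 1 stood apart from saline 2 to 4. It was the highest saline library for 9 of the 10 genes, all but Ddit3, and for 40.7% of all genes tested. Its FPKM was 3.59 times the mean of the other 3 for Hspa5, 2.27 times for Sdf2l1, 1.71 times for Hsp90b1 and 1.10 times for Ddit3. In the lists of related genes it was highest for 10 of 20 sensors and proximal regulators, 21 of 32 ER chaperones and foldases, 20 of 28 genes of ER-associated degradation and 24 of 32 of translocation and export. It was highest for 23 of 36 ATF4 and integrated stress response targets, 10 of 15 genes of ER stress and cell death and 18 of 21 of cytosolic and mitochondrial heat shock. Of the markers of cell types, saline 1 was highest for 8 of 8 neutrophil, 6 of 6 leukocyte, 9 of 10 epithelial, 6 of 7 mural and 6 of 8 macrophage and monocyte genes. The counts were 3 of 4 for erythroid, 4 of 6 for fibroblast, 6 of 12 for endothelial, 3 of 7 for plasma cell and 2 of 5 for lymphocyte markers. Its summed neutrophil markers reached 1382 FPKM against 71.4, 309 and 77.4 FPKM in saline 2, 3 and 4. The part of these other cells in the UPR values of saline 1 was not tested.

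Against saline 2 to 4 alone, all LPS libraries were higher for 8 of the 10 genes, the exceptions being Dnajb9 and Trib3. Of 14767 genes tested without saline 1, 29.5% had all LPS libraries above these 3 saline libraries and 24% had all of them below. In that fit 7 of the 10 genes passed upward and 0 downward by limma, Hsp90b1 and Pdia4 being the added pair, beside 31.2% of all genes upward (4606) and 25.5% downward (3766). Saline 1 was singled out because these same genes were high in it, which by itself raises their fold changes when it is left out. Both counts without it, and the fold changes and adjusted p of single genes without it, are therefore descriptions. The mean of LPS was then 3.12 times that of the remaining saline libraries for Hspa5, 1.37 times for Hsp90b1, 1.31 times for Pdia4 and 1.23 times for Herpud1. The ratio of Hspa5 to Hsp90b1 in FPKM was 0.729, 0.674 and 0.641 in saline 2 to 4, and 1.43 in saline 1. In LPS it was 1.40 to 1.64, so saline 1 lay within the range of LPS.

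**Figure D3:**
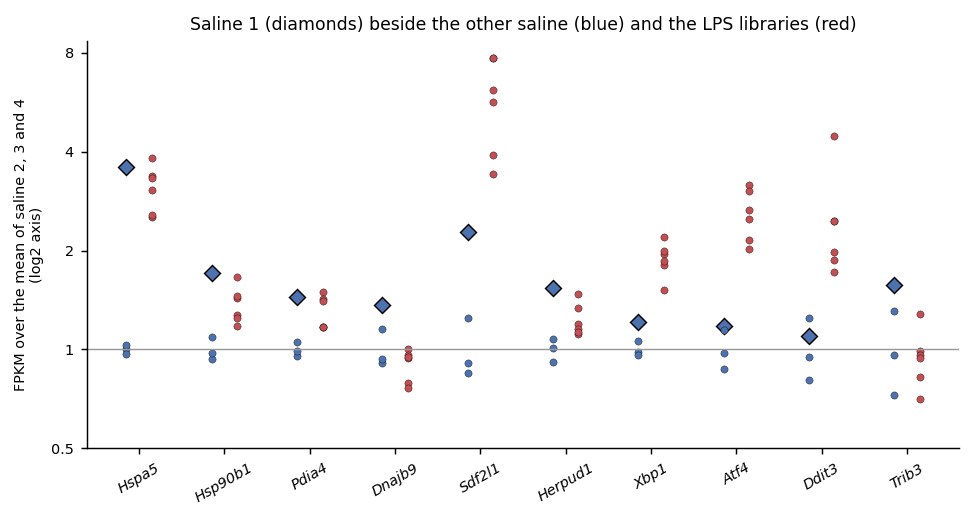
FPKM of the 10 UPR genes divided by the mean of saline 2, 3 and 4, on a log2 axis. Diamonds are saline 1, blue points the other saline libraries and red points the LPS libraries. For Hspa5 saline 1 is at 3.59 and the LPS libraries surround it, while for Sdf2l1 it is at 2.27 and below all LPS libraries.

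The order of the levels differed between the groups. In saline Hsp90b1 had the highest mean (92.5 FPKM), then Hspa5 (88.1), Atf4 (74.5) and Xbp1 (62.9), and Trib3 the lowest (4.73). Hspa5 was above Atf4 in only 1 of the 4 saline libraries, so its place rests on saline 1. In LPS Atf4 was first (185 FPKM), in 5 of 6 libraries above Hspa5 (167), followed by Xbp1 (113) and Hsp90b1 (108), of which Xbp1 was the higher in 4 of 6. Pdia4, Sdf2l1 and Herpud1 lay close together in LPS at 51.0, 47.7 and 45.3 FPKM and changed places between libraries, as did Dnajb9 (18.0) and Ddit3 (17.4). The 10 genes together summed to 656, 353, 399 and 383 FPKM in saline and to 631 to 927 FPKM in LPS.

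Profiles over the 10 saline and LPS libraries were compared by the root-mean-square difference of log2(FPKM + 1) after centring each gene on its own mean. Within the 10 genes the most alike were Pdia4 and Herpud1 (0.0954), Hsp90b1 and Pdia4 (0.0971) and Hsp90b1 and Herpud1 (0.111), all of which were highest in saline 1 among the saline libraries. Dnajb9 and Trib3 (0.162) came next. Outside the 10 genes, those nearest to Hspa5 were Ucp2 (0.180), Manf (0.181), Hist1h1b (0.209), Ctsh (0.209) and Zyx (0.216). Manf, which encodes a secreted ER protein, had 27.2 FPKM in saline 1 against a saline mean of 15.0 and an LPS mean of 30.9 FPKM. Nearest to the other genes were Egln2 (Hsp90b1), Chchd3 (Pdia4), Serinc2 (Dnajb9), Gm5637 (Sdf2l1), Maip1 (Herpud1), Hspd1 (Xbp1), Cdkn2aipnl (Atf4), Isg20 (Ddit3) and Pcbd1 (Trib3).

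Other genes of the pathway were taken from 7 lists that hold none of the 10 genes. Their counts are read against the 29.5% of all genes that rose and the 23.7% that fell. Most list genes also passed the filter at a mean of 2 FPKM, where 3881 of 10849 genes rose and 2419 fell. That background is closer in level to the lists. Under it 8 of 19 sensors and proximal regulators and 9 of 19 heat shock genes rose. Under quantile normalization 24% of all genes rose and 28.8% fell, and with libraries scaled on the endothelial markers 46.8% rose and 5.23% fell. With each library left out in turn, 25.7% to 31.2% of all genes rose and 19.5% to 25.5% fell, and saline 1 gave both upper ends. Of 20 sensors and proximal regulators tested, 8 rose and 3 fell, with a median log2 fold change of 0.23. Under quantile normalization 6 of these rose and 4 fell, and on the endothelial markers 12 rose and 1 fell. Eif2s1, the α subunit of eIF2 that PERK phosphorylates, rose from 6.56 ± 0.213 (SD, n = 4) to 19.0 ± 2.22 FPKM (n = 6). Ptpn1, an ER-bound tyrosine phosphatase, rose by 2.57 on the log2 scale and Ppp1r15b, which helps to dephosphorylate eIF2, by 0.81. Creb3l2, an ER-anchored transcription factor, fell from 21.6 ± 1.92 to 9.44 ± 2.58 FPKM, and Dab2ip from 17.1 ± 6.88 to 6.72 ± 1.68 FPKM. The sensors themselves were looked up after the values were seen. Atf6 rose by 0.47 (limma, adjusted p = 0.00676), while Ern1, which encodes IRE1, had -0.08 (limma, adjusted p = 0.738) and Eif2ak3, which encodes PERK, -0.19 (limma, adjusted p = 0.346).

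Of 32 ER chaperones and foldases tested, 15 rose and 3 fell, with a median of 0.35. Erp29 rose from 7.13 ± 0.777 to 17.2 ± 4.46 FPKM, P4hb, a disulfide isomerase and subunit of prolyl hydroxylase, from 123 ± 19.9 to 236 ± 39.6 FPKM, and Dnajb11, a BiP cochaperone, from 27.3 ± 6.13 to 48.6 ± 7.16 FPKM. Pdia5 fell from 14.6 ± 1.96 to 7.58 ± 1.92 FPKM and Fkbp7, a prolyl isomerase of the ER, from 15.6 ± 1.86 to 8.10 ± 2.77 FPKM. The count that rose was 17 without saline 1 and 11 to 17 with any 1 library left out, and 2 to 3 fell. Under quantile normalization 5 of 32 rose and 6 fell, and on the endothelial markers 26 rose and 0 fell.

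Of 28 genes of ER-associated degradation tested, 16 rose and 1 fell (median 0.36), against 6 and 3 under quantile normalization and 23 and 0 on the endothelial markers. With any 1 library left out 12 to 17 rose and 1 to 2 fell. Edem1, which marks misfolded glycoproteins for degradation, rose from 10.5 ± 2.07 to 25.1 ± 4.48 FPKM, and Vcp, the ATPase that pulls proteins out of the membrane, from 39.6 ± 2.70 to 74.4 ± 9.26 FPKM. Its cofactor Nploc4 rose by 0.67 on the log2 scale, and Herpud2, a relative of Herpud1, fell from 15.3 ± 1.76 to 11.9 ± 1.03 FPKM.

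Among 32 genes of translocation into the ER and of vesicle export, 18 rose and 1 fell (median 0.43). With any 1 library left out 12 (without saline 2) to 22 (without saline 1) rose and 0 to 1 fell, under quantile normalization 9 rose and 6 fell, and on the endothelial markers 31 rose and 0 fell. Spcs3, a subunit of the signal peptidase, rose from 13.0 ± 0.347 to 25.9 ± 1.98 FPKM. Surf4, a cargo receptor, rose from 37.1 ± 6.50 to 87.4 ± 10.2 FPKM, and Sec61g, a subunit of the translocon, from 8.24 ± 1.41 to 26.9 ± 7.14 FPKM.

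In the main comparison the list of ATF4 and integrated stress response targets had the highest share that rose, 27 of 36 tested. Of these targets 4 fell, and their median was 0.81. Under the scaling alternatives 22 to 29 of them rose and 1 to 5 fell. On the endothelial markers their share, 29 of 36, was not the highest. Translocation and export had 31 of 32 there, ER-associated degradation 23 of 28 and chaperones and foldases 26 of 32. Mthfd2, an enzyme of mitochondrial one-carbon metabolism, rose from 0.590 ± 0.127 to 12.1 ± 2.35 FPKM. Aldh18a1, an enzyme of proline synthesis, rose by 2.08 on the log2 scale, and Aars, an alanyl-tRNA synthetase, from 6.67 ± 0.942 to 15.4 ± 1.93 FPKM. Vldlr, a lipoprotein receptor, fell from 1.56 ± 0.402 to 0.471 ± 0.144 FPKM, and Slc6a9, a glycine transporter, from 2.08 ± 0.0961 to 1.01 ± 0.312 FPKM. Chac1, like Trib3 a gene downstream of ATF4 and CHOP and named after its values were seen, fell by 0.77 on the log2 scale (limma, adjusted p = 0.00453).

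Of 15 genes of ER stress and cell death, 8 rose and 3 fell (median 0.47). The counts were 7 and 3 under quantile normalization and 10 and 0 on the endothelial markers. Bak1, a pore-forming protein of the mitochondrial membrane, rose from 13.8 ± 1.68 to 43.2 ± 7.21 FPKM, Bid, its activator, from 2.21 ± 0.990 to 7.31 ± 0.782 FPKM, and Mcl1, an inhibitor of cell death, from 128 ± 36.1 to 276 ± 33.0 FPKM. Itpr1, a calcium channel of the ER, fell from 5.76 ± 0.524 to 2.25 ± 0.613 FPKM and Casp12, an ER-associated caspase, from 5.45 ± 1.30 to 2.30 ± 0.421 FPKM.

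For comparison outside the ER, 9 of 21 cytosolic and mitochondrial heat shock genes rose and 1 fell (median 0.38). With any 1 library left out 8 to 13 rose and 1 fell, 13 being the count without saline 1. Under quantile normalization 7 rose and 3 fell, and on the endothelial markers 16 rose and 0 fell. Hspa8 rose from 129 ± 27.8 to 380 ± 94.4 FPKM, Hspd1 from 26.1 ± 2.56 to 46.9 ± 5.46 FPKM and Dnajb1 from 11.1 ± 0.790 to 19.8 ± 2.90 FPKM, while Hsf1, the heat shock transcription factor, fell from 7.58 ± 0.484 to 5.31 ± 0.446 FPKM. All 7 lists had medians above that of all genes tested (0.01). With the filter at a mean of 2 FPKM the list medians ran from 0.25 to 0.92, beside 0.12 for all genes. Under quantile normalization the median of the sensors was -0.07, beside -0.08 for all genes.

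**Figure D4:**
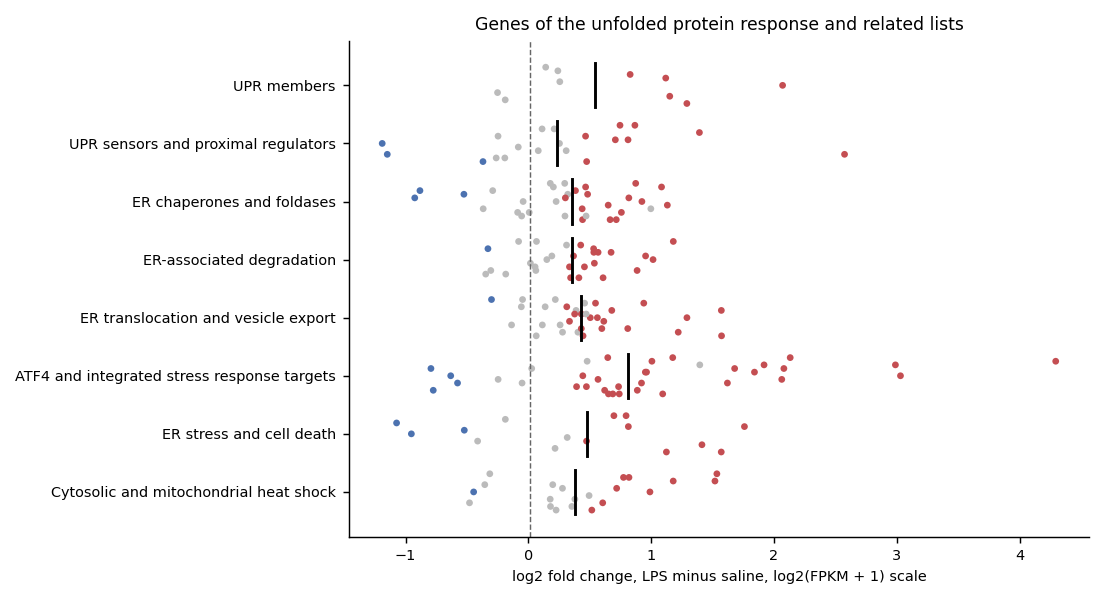
Log2 fold change of LPS against saline for each tested gene of the 10 UPR genes (UPR members) and of the 7 related lists. Red points rose, blue points fell and grey points did not pass, black bars are list medians, the vertical spread has no meaning, and the dashed line is the median of all genes tested. ATF4 and integrated stress response targets have the highest median of the 7 related lists (0.81) and sensors and proximal regulators the lowest (0.23).

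Markers of other cells moved with LPS in the same libraries. All 6 leukocyte markers rose, and their mean of log2(FPKM + 1) was 2.83 higher than in saline, with groups apart (exact permutation p = 0.00952, 0.0317 adjusted over 10 marker lists). Their summed level rose from 146 to 1152 FPKM, with Coro1a the most abundant. Ptprc, which encodes CD45, the protein used for depletion, rose from 6.97 ± 3.13 (SD, n = 4) to 34.6 ± 11.4 FPKM (n = 6). Of 8 macrophage and monocyte markers 7 rose and 1 fell, with a mean 3.42 higher, and of 8 neutrophil markers 6 rose, with a mean 2.34 higher (adjusted exact permutation p = 0.0317 and 0.0476). Lyz2 was the most abundant of the former (649 FPKM in saline, 2568 in LPS) and S100a9 of the latter (259 and 1864 FPKM).

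The endothelial markers were present in all libraries, led by Cldn5 (1533 FPKM in saline and 1058 in LPS, the latter below Lyz2 and S100a9), and 6 of 12 fell while 0 rose. Their mean was 0.70 lower in LPS (adjusted exact permutation p = 0.0317) and their sum dropped from 4851 to 3247 FPKM. Plasma cells, which secrete in bulk and use the UPR, had 8 markers, of which 1 of 7 tested rose and 3 fell. Their sum went from 140 to 59.3 FPKM, with Ighm the most abundant, and the difference of their mean was -0.35 (adjusted exact permutation p = 0.19). Fibroblast markers were 0.47 lower and erythroid markers 0.99 higher (both adjusted exact permutation p = 0.0476), while lymphocyte (-1.01, adjusted exact permutation p = 0.0544), epithelial (-0.44) and mural (-0.28) markers did not pass. No marker had 0 reads in all libraries of an experiment. The part of these cells in the fold changes of the UPR genes was not tested.

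**Figure D5:**
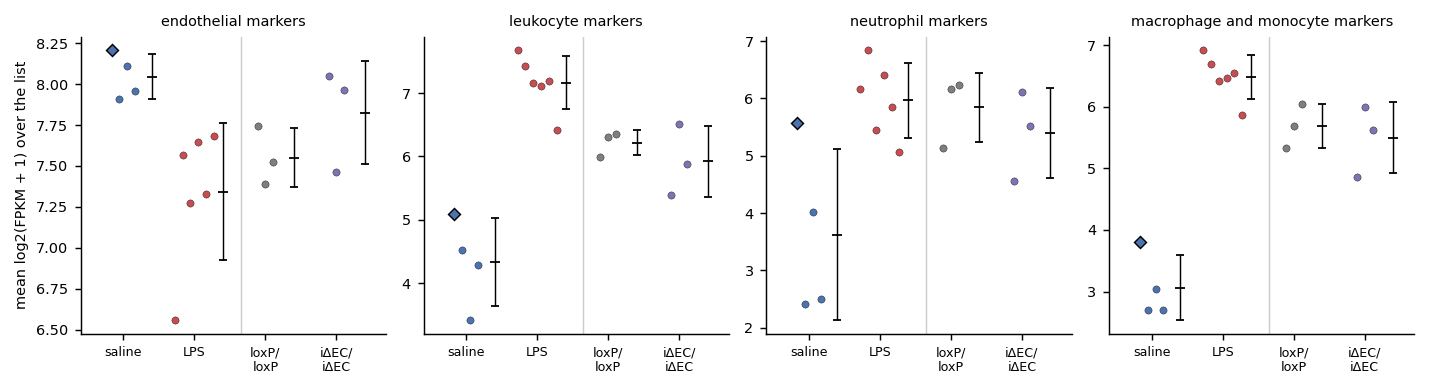
Mean of log2(FPKM + 1) over the endothelial, leukocyte, neutrophil and macrophage and monocyte marker lists in each library, on axes that do not start at 0. Points are libraries, the diamond is saline 1 and bars are the mean ± SD of each group. Leukocyte and macrophage and monocyte markers are higher in all LPS than in all saline libraries, and saline 1 is the highest saline library for all 4 lists.

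The second experiment asks whether endothelial loss of Fgfr1 alters these genes in lungs that all received LPS. Fgfr1, the targeted gene, stood at 2.90, 2.91 and 2.59 FPKM in loxP/loxP and at 0.683, 1.41 and 1.15 FPKM in iΔEC/iΔEC 1 to 3. All iΔEC/iΔEC libraries were thus below all loxP/loxP libraries, with a log2 fold change of -0.88 (SE 0.16) and an exact permutation p of 0.1, the smallest that 3 against 3 allow. Over all genes it did not pass (limma, adjusted p = 0.962). The reads of a whole gene do not show which exons are left.

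None of the 10 UPR genes passed by limma. Of 14945 genes tested 0% passed in either direction, by limma and by limma-voom on recovered reads, and 661 (4.42%) had an unadjusted p under 0.05, 0 of them among the 10. Their median log2 fold change was 0.03, as against 0.01 for all genes tested, and their adjusted p ran from 0.962 to 0.999. With 3 libraries per group these values do not show that the groups were alike, and the confidence intervals give the sizes of difference that they allow. Groups did not overlap in 10.2% of all genes tested, with 6.1% higher and 4.07% lower in iΔEC/iΔEC, and in 0 of the 10.

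Hspa5 was at 143, 140 and 155 FPKM in loxP/loxP and at 135, 146 and 181 FPKM in iΔEC/iΔEC, which gave 0.06 (95% confidence interval -0.30 to 0.43) on the log2 scale. Hsp90b1 gave -0.0017 (-0.31 to 0.31), Xbp1 0.07 (-0.27 to 0.42), Atf4 0.22 (-0.20 to 0.64), Dnajb9 0.15 (-0.16 to 0.46), Pdia4 -0.19 (-0.53 to 0.14), Herpud1 -0.11 (-0.36 to 0.14) and Sdf2l1 -0.11 (-0.60 to 0.38). The highest upper limit among these was that of Atf4 (0.64) and the lowest lower limit that of Sdf2l1 (-0.60). These intervals are from the fit without pairs. Between libraries of the same number, Atf4 was higher in iΔEC/iΔEC in 3 of 3 pairs and Pdia4 lower in 3 of 3, and the other 8 genes went both ways. Over all genes tested, 18% were higher and 12.8% lower in all 3 pairs. With the replicate number as a block the interval was -0.15 to 0.59 for Atf4 and -0.47 to 0.09 for Pdia4, and neither passed (limma, adjusted p = 0.735 and 0.692). For Trib3 and Ddit3, described next without pairs, the block gave -0.83 to 0.097 and -0.046 to 2.71. Neither passed (limma, adjusted p = 0.657 and 0.642).

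Trib3 stood at 7.14, 7.54 and 3.89 FPKM in loxP/loxP and at 4.77, 4.24 and 4.22 FPKM in iΔEC/iΔEC. The change was -0.37 (95% confidence interval -0.90 to 0.16), and loxP/loxP 3 lay below all iΔEC/iΔEC libraries.

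Ddit3 was the most variable of the 10 genes in iΔEC/iΔEC. It had 0.481, 0.284 and 0.354 FPKM in loxP/loxP 1 to 3, from 14, 8 and 11 reads. In iΔEC/iΔEC 1 and 3 it had 4.43 and 5.88 FPKM, from 125 and 164 reads, but in iΔEC/iΔEC 2 only 0.103 FPKM from 3 reads. The groups overlapped through this library, and the log2 fold change of 1.33 did not pass (95% confidence interval -0.24 to 2.91, limma, adjusted p = 0.962, exact permutation p = 0.4). With each library left out in turn it ran from 0.84 (without iΔEC/iΔEC 3) to 2.16 (without iΔEC/iΔEC 2) and did not pass in any case, the lowest limma adjusted p being 0.303. Atf4 did not follow this split, with 151, 179 and 165 FPKM in iΔEC/iΔEC 1 to 3, nor did Trib3. Several marker sums did set iΔEC/iΔEC 2 apart. Its leukocyte markers summed to 677 FPKM (306 and 411 in 1 and 3) and its endothelial markers to 3265 FPKM (4691 and 4335). Its sums were also the highest of this group for neutrophil, macrophage and monocyte, lymphocyte, plasma cell, epithelial and mural markers, but not for fibroblast or erythroid ones. The part of these cells in Ddit3 was not tested.

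Set side by side with the LPS group of the first experiment, the 6 libraries of the second held Hspa5 at 135 to 181 FPKM (136 to 205 in the LPS group), Hsp90b1 at 90.9 to 109 (92.8 to 131) and Atf4 at 116 to 179 (145 to 226). Sdf2l1 ran from 21.2 to 36.5 FPKM (28.2 to 63.8) and Xbp1 from 68.7 to 91.0 (90.9 to 132). The ratio of Hspa5 to Hsp90b1 was 1.42 to 1.68, as against 1.40 to 1.64 in LPS. Ddit3 was at most 5.88 FPKM here and at least 12.0 FPKM in the LPS group. Its reads were 3 to 164 per library here and 173 to 866 in the first experiment, saline included, and the mice and the separate making of the tables cannot be told apart as sources of this difference. The 2 tables were made separately, and mice, genotype and LPS dose differ, so these levels were not tested against each other.

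Of the 7 related lists 0 genes passed in iΔEC/iΔEC against loxP/loxP, and list medians lay between 0.0033 and 0.11. The gene with the smallest unadjusted p in each list was Atf6 (0.24 on the log2 scale), Fkbp14 (0.45), Fam8a1 (0.23), Srpr (0.27), Slc3a2 (0.48), Bok (-0.71) and Cryab (-0.59), all with an adjusted p of 0.962 by limma. Atf6 was 8.87 ± 0.737 FPKM in loxP/loxP and 10.6 ± 0.224 FPKM in iΔEC/iΔEC. Slc3a2, the heavy chain of amino acid transporters, was 120 ± 15.3 and 167 ± 12.5 FPKM (SD, n = 3 each). For the 10 marker lists the exact permutation p adjusted over the lists ran from 0.5 to 0.8. The smallest p that 3 against 3 libraries allow is 0.1, so no list could pass. This test therefore cannot show that the lists were alike. The largest differences were -0.82 for plasma cell markers, led by Igha, and -0.78 for epithelial markers, led by Sftpc. Plasma cell markers summed to 285 FPKM in loxP/loxP and 121 in iΔEC/iΔEC, and epithelial markers to 1987 and 904. Endothelial (0.27) and erythroid (0.23) markers differed in the other direction.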

How the data were processed

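Per the labels and methods, total RNA of bead-isolated lung cells was sequenced. The submitters' processing notes name HISAT2 2.0.5, featureCounts 1.5.0-p3 and mm10 (GRCm38), and the authors tested counts with DESeq2. The authors deposited FPKM per gene and library in 2 tables, and their library sizes matched median-of-ratios factors of the recovered reads, with residuals from -0.182% to 0.119%. Columns of other samples numbered 0. FPKM times gene length gave whole reads (within 0.02) for 100% of values, which gave the depths. These depths set the counting error only.

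FPKM, scaled by such factors within each table, were compared as log2(FPKM + 1) by limma 3.58.1 in R 4.3.3 (lmFit, eBayes with trend). Genes whose mean was under 0.5 FPKM were left out, and p-values were adjusted by Benjamini-Hochberg. For single values an exact two-sided permutation test was used. Python 3.11.15, pandas 2.3.3, numpy 2.4.6, scipy 1.17.1 and matplotlib 3.10.9 were used. The fit was tested on simulated data. All 10 genes have the same start and end in GENCODE M21.

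The 10 genes and all lists were chosen with earlier results of these data known. Named in each list were up to 3 genes per direction with the smallest adjusted p among those that passed with groups apart, the gene of smallest unadjusted p where none passed, and the nearest profiles. Alternatives were the pseudocount, the filter on low values, 3 other scalings, a fold limit, limma-voom on recovered reads, each library left out and the replicate number as a block. In the second experiment same-numbered libraries deviated together from their group means over genes (correlations 0.248, 0.178 and 0.187, against -0.14 to -0.04 in other pairs). The numbers were therefore taken as pairs in the block and in the counts of pairs, while the main fit has no pairs. The data and not the labels give this pairing. The block changed no call there.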

Additional observations from a re-analysis of the deposited data

Results flagged for a closer look

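In each group of 4 or 6 libraries, the highest or lowest library was looked at where its gap to the rest took up most of the range. Of 40 sets of group values, 5 had such a library, and chance gives about 1 in 20, that is 2. Sets of 1 group share the same libraries and are not independent, so 5 against 2 is a description and not a test.

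Hspa5 in saline 1 (192 FPKM) was far above the other saline libraries. Ddit3 in LPS 2 (31.2 FPKM) was far above the other LPS libraries. Saline 3 was far below its group for the lymphocyte marker list (mean log2(FPKM + 1) of 1.72) and for the fibroblast marker list (2.21). LPS 1 was far below the other LPS libraries for the endothelial marker list (6.56). Without LPS 1 the count of the 10 genes that rose was 5, and without saline 3 it was also 5.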

How the results depend on the processing

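After LPS the count of the 10 UPR genes that rose was 4 to 8 and the count that fell 0 to 3 over all alternatives. It was 8 and 0 on the endothelial list, 5 and 1 on total reads and 4 and 3 under quantile normalization, where the median of all genes moved to 0.56, -0.15 and -0.08. The median of the 10 genes was 1.24, 0.34 and 0.02. All genes that rose and fell numbered 4399 and 3529, but 7017 and 785 on the endothelial list, 3464 and 4678 on total reads, 3570 and 4295 under quantile normalization and 1768 and 1011 with a limit of 1 on the size of the log2 fold change. Direction turned for Dnajb9 (0.42) and Trib3 (0.39) on the endothelial list, for Herpud1 on total reads (-0.057), and for Hsp90b1 (-0.33), Pdia4 (-0.22) and Herpud1 (-0.30) under quantile normalization, and Hspa5 lost its call there. The cause was not tested.

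In the second experiment no alternative gave a call. On the endothelial list, which moved the median of all genes to -0.20, direction turned for Hspa5 (-0.21), Xbp1 (-0.20), Dnajb9 (-0.11) and Atf4 (-0.055), and on total reads for Hspa5 (-0.0027). With each library left out the range was -0.058 to 0.15 for Hspa5, -0.066 to 0.072 for Hsp90b1, -0.29 to 0.088 for Sdf2l1 and -0.0049 to 0.20 for Xbp1. It was 0.076 (without loxP/loxP 3) to 0.35 (without loxP/loxP 2) for Atf4, -0.62 (without loxP/loxP 3) to -0.22 (without loxP/loxP 2) for Trib3, 0.036 (without iΔEC/iΔEC 3) to 0.23 for Dnajb9, -0.32 (without iΔEC/iΔEC 3) to -0.13 for Pdia4 and -0.15 to -0.05 (without iΔEC/iΔEC 1) for Herpud1. Ddit3 was under the filter at 2 FPKM. With each library left out after LPS, 5 to 7 of the 10 genes rose and 0 fell, 7 being the count without saline 1. The filters, the pseudocount and limma-voom changed no call of the 10 genes that they tested.

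For saline and LPS the replicate numbers give no pairing (correlations of deviations 0.10, -0.16, -0.21 and -0.12). With the replicate block, which leaves out LPS 5 and 6, 5 of the 10 genes rose and 0 fell, and 3418 and 2587 of 15013 genes tested. Of the lists, 7 of 33 chaperones and foldases, 9 of 28 degradation genes and 11 of 32 translocation and export genes rose under it. The counts were 7 of 19 sensors, 21 of 36 ATF4 targets, 7 of 15 cell death genes and 8 of 21 heat shock genes. In the second experiment the block gave 0 calls. Numbers of 8 reads or fewer, as for Ddit3 in loxP/loxP 2, limit what depth can show.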
